A study of Caenorhabditis elegans with 3 samples.

Results

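The 4 empty vector libraries give the poly(A) transcriptome of the gonad cut out of young adult Caenorhabditis elegans hermaphrodites in which no gene was targeted. They were chosen by their names in the deposited table, where the control columns carry the names orig, 1, 2 and 3, and they make up 4 of the 12 libraries of the study. The animals were of the wild-type strain N2 and ate HT115 bacteria that carried the plasmid L4440 without a worm insert, at 24 °C, over a generation. The other 8 libraries came from N2 gonads treated in the same way with RNA interference (RNAi) against csr-1 or against several P granule genes together, and they enter below only where library orig was compared with libraries 1 to 3 across the study. Each library pooled 400 to 500 gonads severed at the bend of the arm, so it averages over many animals and over the germ cells and somatic cells of the cut piece. The series calls the 4 libraries of a condition biological replicates. The meaning of the name orig was not given.

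The adult gonad arm of this worm is a tube in which germ cells divide at the distal end, pass through meiosis along the arm and grow into oocytes near and beyond the bend. Transcription slows as oocytes mature, and stored messenger RNAs are kept silent by RNA-binding proteins until the embryo needs them. A hermaphrodite makes sperm only late in larval life and then switches to oocytes, and the X chromosome is largely silent in the mitotic and early meiotic germ cells.

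The control libraries held 29.8 (orig), 24.4 (1), 26.2 (2) and 23.2 (3) M reads in genes (megareads). Reads without a unique alignment came to 2.04% to 2.21%, and they were counted to no gene, so genes with near-identical copies are uncertain. Levels are given as normalised reads, which are reads divided by the size factor of the library. Levels of different genes are compared per kilobase of exon (reads per kb), and errors are SDs over the 4 libraries. A gene was taken as detected at a mean of at least 10 normalised reads. A count of 3 reads, which an observed 0 still allows, corresponds to 2.44 to 3.14 normalised reads depending on the library, and such limits cover counting error only.

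Germ cell markers were abundant, and markers of other tissues ranged from near background to well detected. The RNA helicase gene glh-1 had 9020 ± 2006 reads per kb, the P granule scaffold gene pgl-1 had 8389 ± 1563, the translational repressor gene gld-1 had 17906 ± 1908 and the meiotic axis gene him-3 had 3438 ± 297 (SD, n = 4 here and throughout). In contrast, the neuronal genes rab-3 and rgef-1 had 6.13 and 1.69 reads per kb, the muscle transcription factor gene hlh-1 had 2.996, the intestinal transcription factor gene elt-2 had 4.67 and the pharyngeal transcription factor gene ceh-22 had 0.19. Each of these somatic genes lay far below each of the 4 germ cell genes. Other somatic markers were higher: the yolk genes vit-2 and vit-5, expressed by the intestine, had 2032 and 1045.5 reads per kb. The pharyngeal myosin genes myo-1 and myo-2 had means of 85.9 and 83.1 normalised reads. The body wall myosin gene unc-54 and the neuronal gene snb-1 were higher still, with values given below.

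In all, 10345 of 45836 gene entries were detected, and 28240 entries had no read in any of the 4 libraries. Of 19451 protein-coding genes, 9903 (50.9%) were detected, 3223 (16.6%) had no read at all and 6325 lay in between. Protein-coding genes took 99.2% of the reads. The levels were spread widely: 4220 genes had a mean of at least 1000 normalised reads, 404 of at least 10000 and 7 of at least 100000. The most abundant gene held 1.76% of the reads, the first 10 held 6.34%, the first 100 held 25.06% and the first 1000 held 62.3%. The first 533 genes held 50% of the reads and the first 3263 held 90%. The share of the first 100 genes came to 26.5% in library orig, 26.1% in library 1, 24.8% in library 2 and 22.7% in library 3, so it was lowest in library 3.

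**Figure D1:**
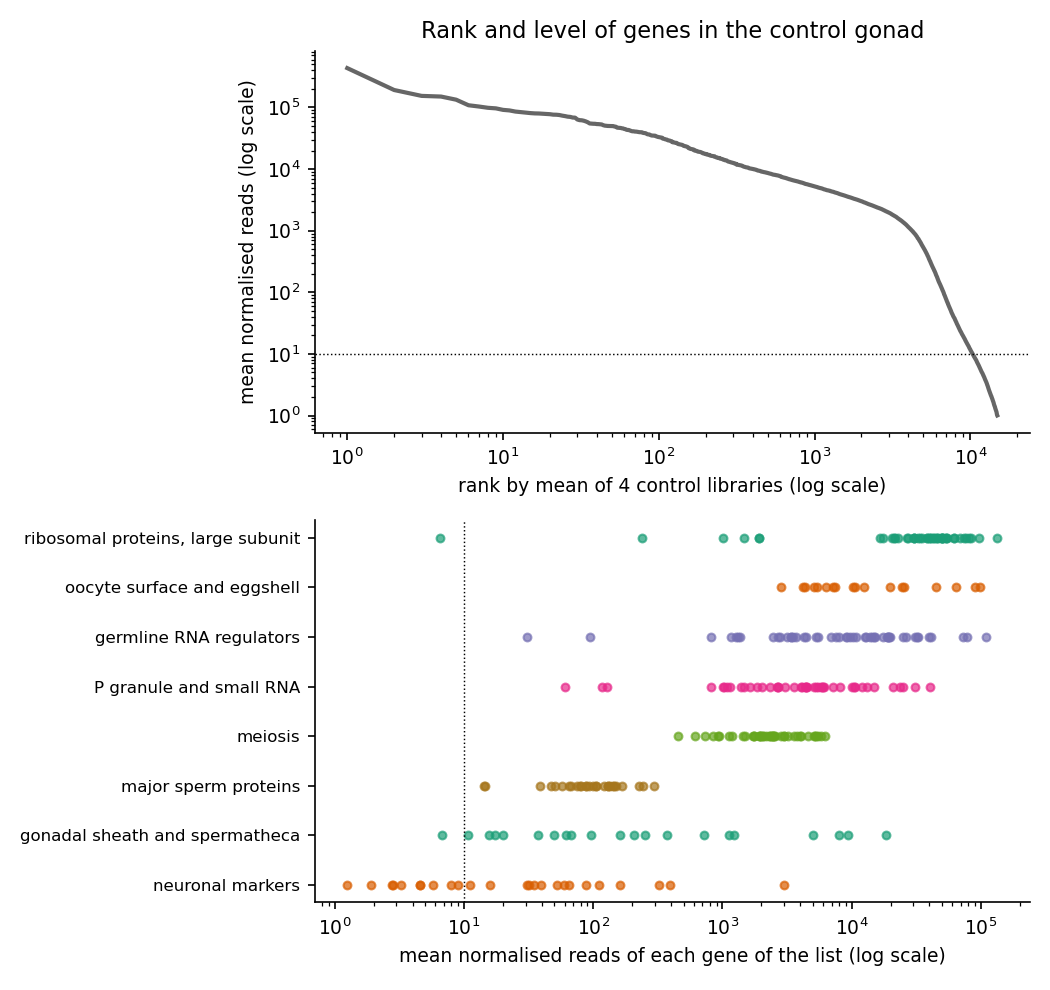
Upper panel: mean normalised reads of the 4 control libraries against the rank of the gene, both on log scales, with the detection limit of 10 as a dotted line. Lower panel: each point is a gene of the list at its mean normalised reads (log scale); the eggshell list runs from perm-3 at 2841 to cbd-1 at 98825, whereas no major sperm protein gene exceeds msp-36 at 293.

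Protein synthesis was the most abundant function. eef-1A.1, which encodes the elongation factor that brings aminoacyl-tRNA to the ribosome, ranked first both by reads and per kb. It had 446852, 470329, 471862 and 352991 normalised reads in libraries orig, 1, 2 and 3, a mean of 435509 ± 56190 and 283350 ± 36558 reads per kb. Library 3 was the lowest, and the other libraries lay close together. eef-2, the translocation factor, followed in rank with 192054 ± 28890 normalised reads.

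The 78 ribosomal protein genes took 13.8% of all reads, 7.87% in the large and 5.92% in the small subunit, and 77 of them were detected. Among the 100 genes with most reads, 29 encoded large subunit and 24 small subunit proteins, and among the first 100 per kb the numbers were 41 and 30. The highest per kb were rpl-41.2 with 137673 ± 20251, rps-25 with 137569 ± 8432, rps-8 with 120267 ± 5830, rps-23 with 119370 ± 12333 and rpl-10 with 116289 ± 10744. The interval of rpl-41.2 (mean ± SD) overlaps those of the other 4, whereas rps-25 stood above rps-8 by more than their SDs, and rps-8, rps-23 and rpl-10 lay within their SDs of each other. The large subunit list took 8.60%, 8.26%, 7.33% and 7.30% of the reads in libraries orig, 1, 2 and 3.

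Where the translation machinery has related copies, a copy on an autosome usually carried nearly all the reads. rpl-11.1 on chromosome V had 112690 reads per kb against 1370 for rpl-11.2 on chromosome X, and rpl-25.2 on chromosome I had 94463 against 482 for rpl-25.1 on chromosome X. The pair of elongation factor copies eef-1A.1 (chromosome III) and eef-1A.2 (chromosome X) stood at 283350 and 579 reads per kb, and the poly(A)-binding protein genes pab-1 (chromosome I) and pab-2 (chromosome X) at 39059 and 86.4. The initiation factor 5A genes iff-1 (chromosome III) and iff-2 (chromosome II) stood at 68958 and 357, although both are autosomal. Of the genes for the cap-binding protein eIF4E, ife-3 with 12512 and ife-1 with 10122 reads per kb were far above ife-5 with 457, ife-2 with 377 and ife-4 with 100.3. The lowest ribosomal protein gene was rpl-42 with 9.06 reads per kb, listed in library 3 at 2.97 normalised reads.

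Chaperones and energy metabolism were abundant as well. hsp-1, a constitutive Hsp70, had 74417 ± 6645 reads per kb, and hsp-90 had 63782 ± 10403. The 8 genes of the TCP-1 chaperonin, which folds actin and tubulin, were all detected with a median of 16188 normalised reads. The stress-inducible heat shock genes were near background: hsp-16.2 had 3.06 and hsp-70 2.33 reads per kb, and hsp-16.48 had no read in any library. ant-1.1, the adenine nucleotide carrier of mitochondria, had 60592 ± 8196 reads per kb, while its relatives ant-1.3 and ant-1.4 had 92.2 and 42.7 and ant-1.2 had no read. The ATP synthase genes atp-2 and atp-1 had 36789 and 29998 reads per kb. Of the 44 nuclear genes of the respiratory chain and ATP synthase list, 43 were detected, and the list took 1.55% of the reads. The 12 protein-coding genes of the mitochondrial genome were listed at 0 in all 4 libraries. Whether reads from that genome were aligned and counted was not tested, so these values do not show that the genes were silent. Every gene of the nuclear pore (26 genes), of the tRNA synthetases (20), of the proteasome family (20) and of the initiation factors (25) was detected.

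Regulators of stored messenger RNA were the second large theme. The list of 49 germline RNA regulators took 3.27% of the reads, and 49 of 49 were detected, with a median of 3436 reads per kb. cey-2, a Y-box RNA-binding protein gene, had 84169, 80627, 77706 and 70711 normalised reads in libraries orig, 1, 2 and 3, and its 77451 ± 5648 reads per kb were the highest of the list. car-1, a partner of the helicase CGH-1 in RNA granules, had 50953 ± 8130.2, and cgh-1, a DEAD-box helicase gene that protects stored transcripts, had 47833 ± 6048. The level of cey-2 stood above those of car-1 and cgh-1 by more than the SDs, and the levels of car-1 and cgh-1 lay within the SDs of each other. The related Y-box genes cey-3, cey-4 and cey-1 followed with 31209, 15858 and 6700 reads per kb.

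The regulators of oocytes and early embryos were next. pos-1, a zinc finger protein gene of the early embryo, had 22166 reads per kb, the Pumilio gene puf-5 had 19956, spn-4 had 17155 and mex-5, which encodes a zinc finger protein of embryonic polarity, had 16482. The oocyte maturation factor genes oma-2 and oma-1 had 12428 and 7140, and lin-41, which holds back oocyte maturation, had 4068. Genes that set the sperm or oocyte fate were lower. fog-2, needed for hermaphrodite sperm, had 1124 ± 139 reads per kb, fog-1 had 384 ± 36.1 and fog-3, which acts with fog-1 to promote sperm fate, had 30.7 ± 12.1. The lowest of the list was asd-2 with 25.06.

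Of the 46 P granule and small RNA genes, 45 were detected and the list took 1.31% of the reads. wago-1, an Argonaute that binds secondary small RNAs, had 41745, 40619.7, 43725 and 34318 normalised reads in libraries orig, 1, 2 and 3, and with 13127 ± 1330.2 reads per kb was the highest. glh-1 followed with 9020, the nuclear Argonaute gene hrde-1 with 8791, pgl-1 with 8389, csr-1 with 6421 ± 432, pgl-3 with 5296, deps-1 with 4905 and the piRNA Argonaute gene prg-1 with 4904. Between glh-1, hrde-1 and pgl-1 the differences were smaller than the SDs. The GLH family was graded, with glh-2 at 3235, glh-4 at 1907 and glh-3 at 1080 reads per kb, and of the PGL genes pgl-2 was lowest at 1318. The Argonautes alg-3 and alg-4, known from spermatogenesis, were at 35.9 and 36.9 reads per kb, sago-2 was at 20.4 and wago-5 was at 0.26, below the detection limit. alg-4 had 292 normalised reads in library orig, 109.9 in library 1, 55.0 in library 2 and 54.4 in library 3, so library orig was the highest and library 1 the next.

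Genes of meiosis were present at moderate levels, most of them with little spread between libraries. All 43 genes of the meiosis list were detected, between 81.2 reads per kb for atm-1 and 3438 for him-3, with zim-1 at the median of 1262, and together they took 0.46% of the reads. The 6 genes of the synaptonemal complex, the zipper between paired chromosomes, ranged from 635 reads per kb for syp-1 to 2608 for syp-4. Genes of pairing centres, him-8 with 1598 and zim-2 with 813, stood in the same range, as did spo-11, which makes meiotic breaks, with 1663, and the crossover marker gene cosa-1 with 724. The mitotic machinery was higher: cyb-3, a B-type cyclin gene, had 15443 and rnr-2, a ribonucleotide reductase subunit gene, had 13694 reads per kb, and all 40 genes of replication and the cell cycle were detected. The lowest of that list, the cell cycle inhibitor gene cki-1, had 43.1.

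The oocyte surface and eggshell list held 18 genes, all detected, and took 1.79% of the reads. cpg-2, a chondroitin proteoglycan of the eggshell, had 84223, 95398, 106866 and 71708 normalised reads in libraries orig, 1, 2 and 3 and 51973 ± 8743 reads per kb. cpg-1 had 33786, cpg-3 had 23863 and cbd-1, a chitin-binding protein gene, had 23413 reads per kb. rme-2, the yolk receptor of the oocyte, had 15540 ± 2626. The fertilisation gene egg-1 had 14162 against 5786 for its relative egg-2, and egg-4, the lowest of the list, had 1780. Library 2 was the highest for 13 of these 18 genes, and library orig was the lowest for 13.

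Of 16 genes of the Notch receptor and germline stem cell list, 16 were detected. glp-1, the Notch receptor of the germline, had 6787, 8969, 9093 and 7656 normalised reads in libraries orig, 1, 2 and 3 and 1878 reads per kb, whereas the related receptor gene lin-12 had 12.3. The Notch targets sygl-1 and lst-1 had 4388 ± 1206 and 2509 ± 256 reads per kb, and the RNA-binding proteins they act with, fbf-1 and fbf-2, had 566 and 510. Of the ligand genes, lag-2, the ligand of the distal tip cell, had 4.07 reads per kb. Its mean of 6.07 normalised reads lay below the detection limit. apx-1, also a Notch ligand gene, had 1398 reads per kb, and which cells it came from was not tested. In the apoptosis list of 15 genes, ced-3, the caspase, had 1885 and ced-9, a Bcl-2 type inhibitor of cell death, had 1814 reads per kb. The inducer gene egl-1 had 77.1 and ced-13 had 2.08.

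Sperm transcripts were present in all 4 libraries and low. Of 31 major sperm protein genes, whose product moves the sperm and signals to the oocyte, 28 were detected, yet together they took 0.0124% of the reads and their median was 231 reads per kb. These genes are near-identical copies, and reads without a unique alignment were counted to no gene. The share of any member is therefore uncertain, and the sum of the family may be too low. The highest, msp-36, had 451, 427, 131 and 164 normalised reads in libraries orig, 1, 2 and 3, so libraries orig and 1 lay above libraries 2 and 3 without overlap. The sum over the list was 4963, 4327, 1359 and 1563, in the same order. Of 29 small sperm proteins and sperm phosphatases 23 were detected, and their sum was 2796, 2066, 778 and 868. gsp-3 and gsp-4, phosphatases of sperm, had 117 and 113 reads per kb. Of 30 spe and fer genes 17 were detected, near the 50.9% of all protein-coding genes. spe-39, whose product also acts in vesicle traffic, was the highest with 1892 reads per kb, and spe-44, a transcription factor gene of spermatogenesis, had 517 ± 9.27 with almost no spread. The sperm surface gene spe-9 had 6.46.

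Somatic tissues of the gonad were visible and uneven. Of 21 genes of the sheath and spermatheca list, 20 were detected. fln-1, a filamin that the spermatheca needs to contract, had 2294 ± 607 reads per kb. The innexin genes inx-8 and inx-9, whose gap junctions join sheath cells to germ cells, had 900 ± 530 and 195 ± 106. lim-7, a marker of the sheath, had 25.8, ceh-18 had 6.83 and sth-1, a marker of the spermatheca, had 27.9. Of 11 distal tip cell genes 8 were detected, but hlh-12, the most restricted marker, had 1.55 reads per kb. In bulk RNA a lower level of a marker may mean fewer cells of a type or less RNA per cell, which cannot be told apart here.

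Markers of tissues outside the gonad were present at summed levels that differed between tissues and libraries. For scale, the sheath and spermatheca list summed to 37514.5 normalised reads in library 3 and 51984 in library 1, its lowest and highest values. Of 22 body muscle genes 20 were detected, with a summed level of 10975 to 16121 normalised reads, and unc-54, the body wall myosin, had 1241, 2178, 777 and 931 in libraries orig, 1, 2 and 3. Of 26 neuronal genes 15 were detected, with a sum of 3981 to 4921 of which snb-1, a synaptobrevin, made 2622 to 3311. Of 9 pharynx genes 5 were detected, and their sum was 431, 285, 133 and 37.6 in libraries orig, 1, 2 and 3. Cuticle collagens, made by the skin, summed to 23187, 41458, 18125 and 24861 normalised reads, with 99 of 176 genes detected. The detected shares of the neuronal, pharynx and collagen lists lay near the 50.9% of all protein-coding genes, so they are no result about these lists. The muscle list, with 20 of 22 detected, lay above that share. The vitellogenin genes, which the intestine expresses to supply yolk, summed to 8842, 36521, 25286 and 57905. The intestinal factor gene elt-7 had 5.998 to 7.91 normalised reads. Library 1 was highest for muscle and collagens and library 3 for vitellogenins, while the pharynx markers were highest in library orig.

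Many members of large gene families were undetected in the gonad. Of 1309 serpentine chemoreceptor genes, 11 were detected and 1028 had no read in any library, and the family took 0.00578% of the reads. The exception was sri-40, with 571, 868, 1108 and 1323 normalised reads in libraries orig, 1, 2 and 3 and a level of 794 reads per kb. Of 38 insulin-like peptide genes 3 were detected, of 37 PALS genes 3, of 53 antimicrobial caenacin and related genes 4, of 102 neuropeptide genes 16 and of 83 acetylcholine receptor and ligand-gated channel genes 12. Of 269 nuclear hormone receptor genes 85 were detected, led by nhr-66 with 722 reads per kb, and of 322 F-box genes 65 were detected, led by fbxa-215 with 5897.

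Some families with many undetected genes had an abundant member. Among 240 C-type lectin genes 42 were detected, and clec-87 had 39724, 35276, 38207 and 37836 normalised reads in libraries orig, 1, 2 and 3, which placed it among the first 100 genes of the gonad. The 74 cytochrome P450 genes had 17 detected members, led by cyp-31A2, known from eggshell lipid synthesis, with 3072 reads per kb. The patched-related family was detected about as often as all protein-coding genes, in 13 of 24, with ptr-2 at 3416 reads per kb. Of 72 his genes 21 were detected and 35 had no read, and his-74 and his-72, H3.3-type histone genes, had 10135 and 8915 reads per kb. The replication-dependent histone genes are near-identical copies whose transcripts mostly lack a poly(A) tail, so their low counts do not measure their RNA. Likewise 0 of 609 tRNA genes, 0 of 120 snRNA genes and 1 of 15363 piRNA genes were detected in these poly(A) libraries.

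**Figure D2:**
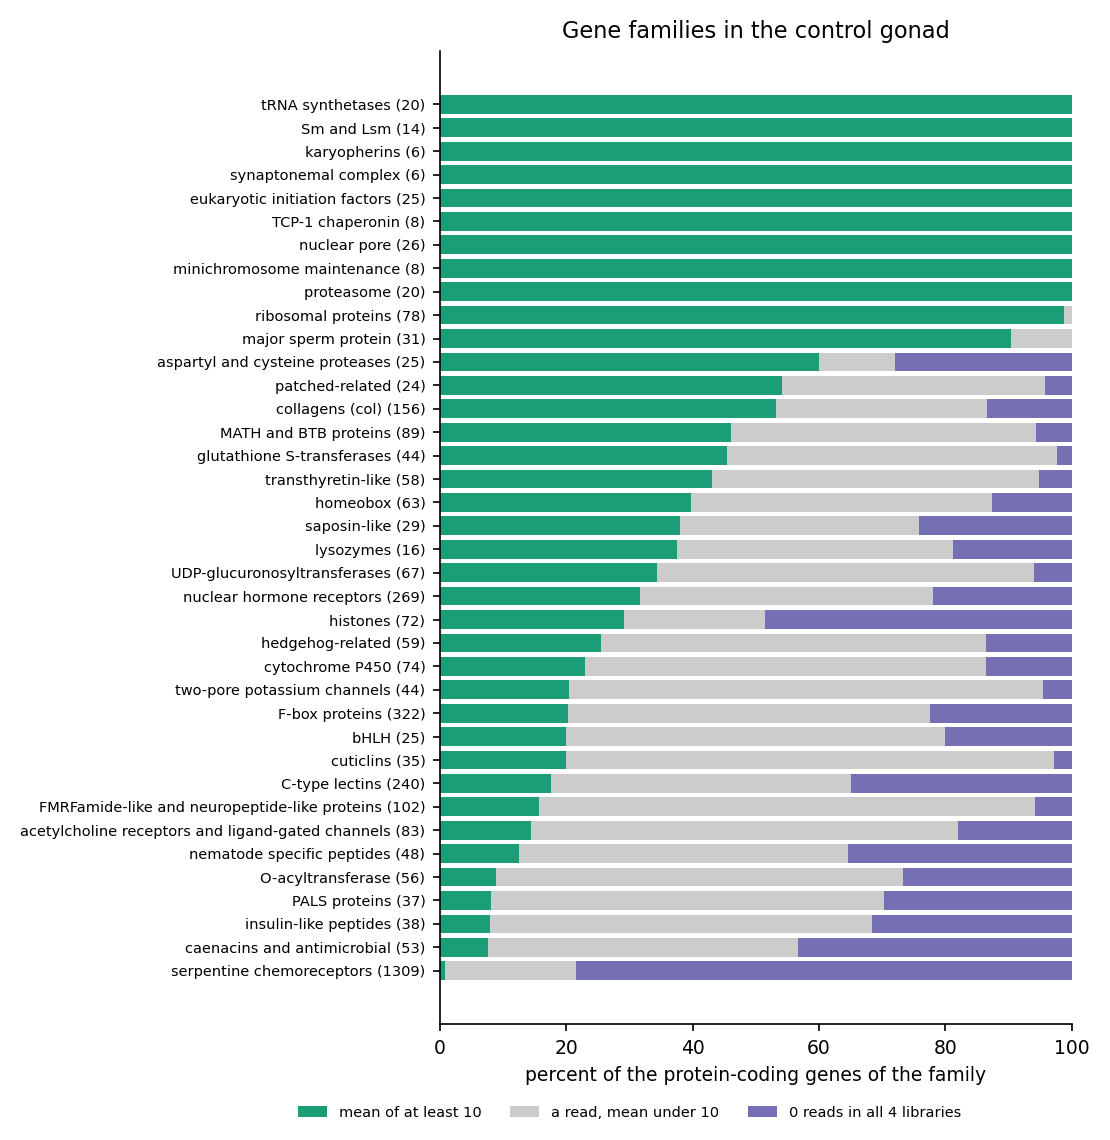
Bars give, for each gene family with its number of protein-coding genes in parentheses, the percent of genes with a mean of at least 10 normalised reads (green), with reads but a lower mean (grey) and with 0 reads in all 4 control libraries (violet). Housekeeping complexes reach 100% detected and chemoreceptors reach 0.84%.

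The chromosomes contributed unequally. Of the protein-coding genes of chromosomes I, II, III, IV and V, 68.8%, 50.7%, 69.996%, 54.3% and 32.2% were detected, and of those of chromosome X 44.3%. The median level of the detected genes was 803, 512, 850, 433 and 225 reads per kb on chromosomes I to V and 73.3 on chromosome X. Chromosome X held 2653 protein-coding genes and took 1.70% of the reads, and none of its genes was among the first 100 and 7 were among the first 1000. Its share was 1.47%, 1.54%, 1.78% and 2.03% in libraries orig, 1, 2 and 3, so it was highest in library 3.

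The most abundant X-linked gene was mrp-4, which encodes an ABC transporter, with 12361 ± 2414 normalised reads and 2439 reads per kb. C39D10.7 followed with 4192, 9129, 13079 and 14628 normalised reads in libraries orig, 1, 2 and 3, vit-2 with 3208, 12051, 7939 and 16906, hsp-3, an endoplasmic reticulum Hsp70, with 7211 ± 1629 and the P granule gene meg-1 with 5806 ± 879. C39D10.7 and vit-2 were lowest in library orig and highest in library 3, whereas mrp-4, hsp-3 and meg-1 were highest in library 2. The dosage compensation switch gene xol-1 had 13.4 and sdc-2 had 15.98 reads per kb.

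**Figure D3:**
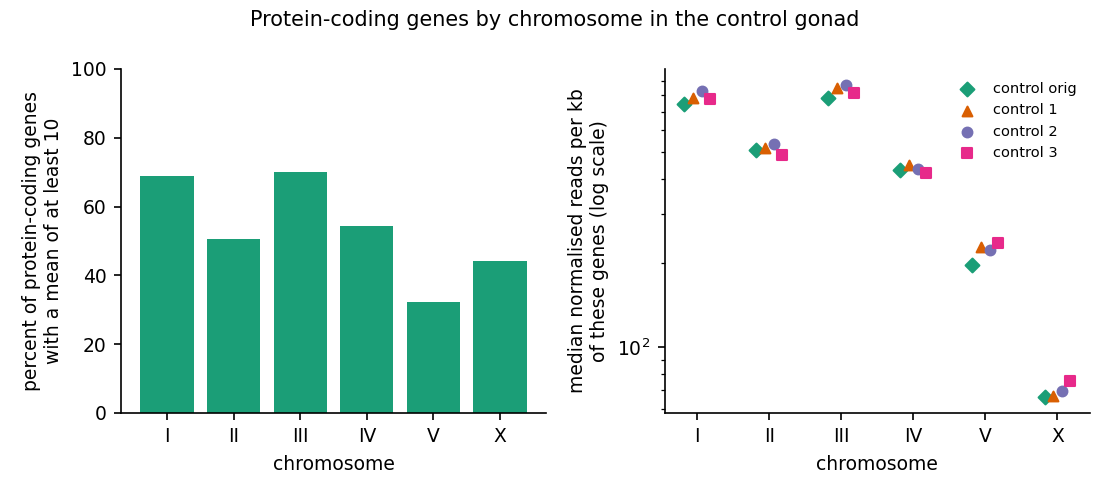
Left: percent of protein-coding genes of each chromosome with a mean of at least 10 normalised reads, as bars from 0. Right: median normalised reads per kb of these genes (log scale) in each of the 4 control libraries; chromosome X lies at 65.9 to 75.6 in every library and chromosome V, the next lowest, at 197 to 236.

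The 4 libraries were close for most genes and far apart for a few. Among 7506 genes with a mean of at least 50 normalised reads, the median SD of log2(value + 1) was 0.20, against 0.039 from counting error alone, and 187 genes (2.49%) had an SD of at least 1. Over all 10345 detected genes the median SD was 0.26. The closest libraries were 1 and 2, with a median absolute log2 difference of 0.12, and library 3 differed from libraries orig, 1 and 2 by 0.28, 0.29 and 0.29. As a check for a library deposited under more than 1 name, the chi-square statistic divided by its degrees of freedom was 20.6 or higher for every pair, so each was counted as a library of its own.

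Within the germline lists the spread was near that of all genes. Over all genes with means of 1000 to 10000 normalised reads the median SD was 0.17. Of all 7506 genes with a mean of at least 50, 9.70% reached an SD of 0.5, and the P granule count below lay near that share. The median SD was 0.16 over the 48 RNA regulators with a mean of at least 50, none of which reached 0.5. It was 0.14 over the 43 meiosis genes, of which 2 reached 0.5. It was 0.22 over 45 P granule and small RNA genes, of which 4 reached 0.5, and 0.19 over the 18 oocyte surface and eggshell genes, of which perm-4 reached 0.55. perm-4, an eggshell permeability gene, had 7281, 10271, 15502 and 16476 normalised reads in libraries orig, 1, 2 and 3. By the rule for the steadiest genes with a mean of at least 1000, the 6 smallest SDs belonged to nse-4, lin-26, cfim-1, plp-1, R151.8 and B0001.3. nse-4 had 2876, 2865, 2842 and 2861 normalised reads, and lin-26, which encodes a zinc finger protein, had 3842, 3796, 3803 and 3824. For 5 of these 6 genes the SD lay below the SD from counting error alone, as the smallest of many genes can, and plp-1 had 0.016 against 0.014. These small SDs depended on the scaling. With TMM factors in place of the deposited size factors, nse-4 had 0.019 against 0.0071 and lin-26 0.023 against 0.0080. R151.8 had 0.035 against 0.017 and plp-1 0.021 against 0.016.

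The 12 largest SDs belonged to genes high in library orig. They were col-63, ZK180.6, E01G4.6, col-73, rol-1, col-49, col-138, abu-14, grl-16, ZK180.5, col-14 and dpy-13, and 7 of the 12 are in the list of cuticle collagens, which build the skin of the worm. col-63 had 267 normalised reads in library orig, 47.1 in library 1, 1.999 in library 2 and 0 in library 3, an SD of 3.69. E01G4.6 had 472, 48.1, 1.999 and 1.98, and dpy-13, a collagen gene of body shape, had 370, 75.3, 4.00 and 8.90. All 12 shared this order, with library orig highest, library 1 next and libraries 2 and 3 near background.

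The same step between libraries orig and 1 and libraries 2 and 3 was seen more widely. Of the 500 genes with the largest SDs, libraries orig and 1 were the highest pair for 236 (47.2%), against 9.97% of all 7506 genes. Pharyngeal myosin genes were also highest in libraries orig and 1 but had their largest fold step between libraries 2 and 3: myo-2 had 169, 100.5, 55.0 and 7.91 normalised reads in libraries orig, 1, 2 and 3, and myo-1 had 160.1, 129.8, 44.0 and 9.89. All 24 major sperm protein genes with a mean of at least 50 had libraries orig and 1 as their highest pair. The part of other tissues in these differences was not tested. The collagens themselves did not move as a block. Among 54 with a mean of at least 50, library orig was highest for 23, library 1 for 28 and library 3 for 3. The abundant col-119 had 691, 3026, 1195 and 2201 normalised reads, and col-19, a collagen of the adult cuticle, had 561, 2111, 911 and 968, so for both of them library orig was the lowest.

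**Figure D4:**
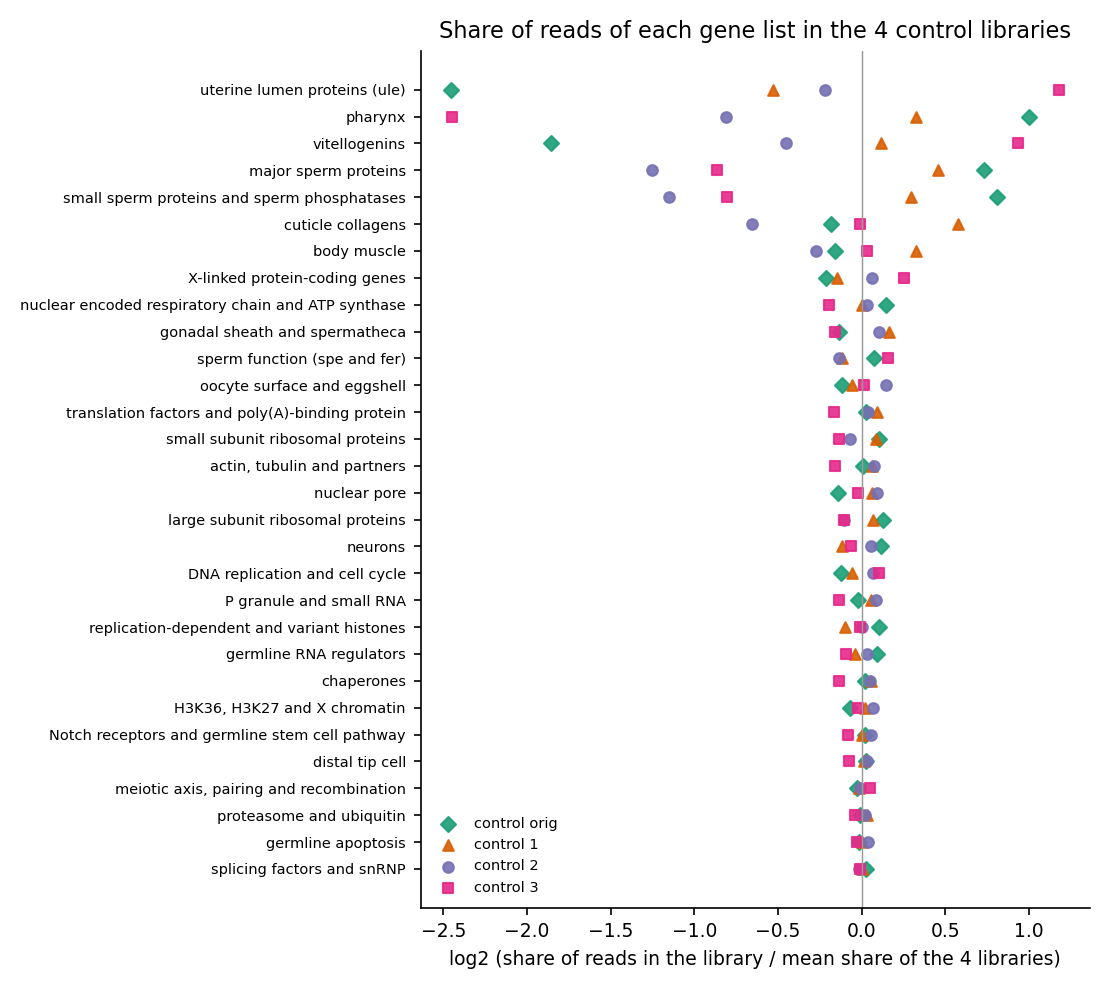
Each row is a gene list; the points give log2 of its share of reads in a control library over its mean share in the 4 control libraries, with the symbols for libraries orig, 1, 2 and 3. The uterine lumen, pharynx, vitellogenin, major sperm protein and small sperm protein lists spread over more than 1 log2 unit, and the splicing, apoptosis and proteasome lists lie close to 0.

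A second set of variable genes ran the other way, low in library orig and highest in library 3. The ule genes, named for products found in the uterine lumen, summed to 1900, 7594, 9660 and 22396 normalised reads in libraries orig, 1, 2 and 3. ule-1 had 24.4, 263, 448 and 679, and ule-3 had 967, 3677, 5219 and 11815. The vitellogenin genes vit-1 to vit-6 all had their lowest value in library orig and their highest in library 3, as in vit-6 with 3811, 14766, 9318 and 21392 and vit-5 with 1005, 5503, 3840 and 10019. The ule and vitellogenin lists were made after their values were seen, so their agreement in direction is a description. rrn-3.1, a ribosomal RNA entry, had 10184, 20443, 6052 and 62257 normalised reads and was also highest in library 3. cls-3, which encodes a microtubule-binding protein of the CLASP family, had 320, 2786, 3314 and 2963, so that library orig alone was low.

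Library 3 was low for long genes. Among genes with a mean of at least 50, library 3 was the lowest library for 77.4% of the 186 genes with more than 6 kb of exon, for 53.9% of the 393 genes of 4 to 6 kb and for 25.6% of the 1479 genes of 0.5 to 1 kb. The median log2 deviation of library 3 from the mean of the 4 libraries was −0.34 over the longest class and 0.12 over the class of 0.5 to 1 kb. Library 2 deviated by 0.21 and −0.05 in these classes, and library orig by −0.00234 and 0.00828. Library orig was lowest in between, with −0.11 over the 1991 genes of 2 to 4 kb, where it was the lowest library for 44.9%, and it had 0.12 over the genes under 0.5 kb. Long genes of the germline lists followed. The helicase gene znfx-1 had 5385, 6977, 6378 and 3015 normalised reads in libraries orig, 1, 2 and 3, and the Dicer gene dcr-1 had 6385, 7143, 6728 and 3712. rad-50, a DNA repair gene picked after its values were seen, had 6439, 6388, 7148 and 1796. Library 3 was the lowest in all of them, and what sets this length pattern was not tested.

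The name orig marks a library in each of the 3 groups, so the orig libraries can be compared with the numbered libraries over the study. Control library orig is 1 of the 3 orig libraries, so this comparison alone cannot show that its deviations recur. With group as a term over all 12 libraries, limma called 455 of 11750 genes (3.87%) between the 3 orig libraries and the 9 numbered libraries, 115 higher (0.979%) and 340 lower (2.89%) in orig; edgeR with RLE factors gave 143 and 252. Of the 455 limma calls, 70 were higher and 281 lower by at least 1 on the log2 scale. The median difference over all tested genes was −0.0067. The count depended on the libraries: limma called 1 gene with the control libraries alone and 177 with the RNAi libraries alone. It called 100 without the P granule RNAi library orig, of which 1 was higher, 157 without the csr-1 RNAi library orig, of which 7 were higher, 284 without control library 3 and 275 without P granule RNAi library 2. On the recovered reads edgeR with TMM factors called 380 genes and DESeq2 called 1060, 410 higher and 650 lower. No batch is named in the sources used here, so what distinguishes the orig libraries cannot be told apart from their name.

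The largest called difference was that of ule-1, at −4.81 (SE 0.36, limma adjusted p = 0.000151) and adjusted p-values from 1.31e-33 to 0.0878 over 20 alternative settings, the highest with the control libraries alone. In the csr-1 RNAi group ule-1 had 18.9 normalised reads in library orig against 492, 302 and 671 in libraries 1, 2 and 3, and in the P granule RNAi group 9.59 against 585, 477 and 708. The other ule genes were also called lower, by −2.99 for ule-2 to −3.76 for ule-4, which is a description, since that list was made after its values were seen. C10G8.4 (−4.43, SE 0.66, limma adjusted p = 0.00441), C46C2.5 (−4.02), F53H4.2 (−3.83), ttr-42, a transthyretin-like gene (−3.79), and ule-4 (−3.76) were the other largest falls by the rule. C10G8.4 was called in 18 and ule-4 in 17 of 20 alternative settings, and C46C2.5, F53H4.2 and ttr-42 in 19. With the RNAi libraries alone, C10G8.4 (limma adjusted p = 0.0571) and ule-4 (limma adjusted p = 0.0696) were not called. ule-1, C46C2.5, F53H4.2 and ttr-42 were called there. None of these 6 genes was called with the control libraries alone. cls-3, picked for its small p, was lower by −3.01 (SE 0.16, limma adjusted p = 6.94e-06). cls-3 had 306 normalised reads in the orig library against 1537 to 1843 under P granule RNAi, and 98.2 against 890 to 1154 under csr-1 RNAi.

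Of 20 tested genes of the sheath and spermatheca list, 6 were called lower in orig, against 2.89% of all tested genes, and 14 were not called. The 6 were lim-7, inx-8, inx-9, fkh-6, which encodes a forkhead factor of the somatic gonad, and the basement membrane collagen genes emb-9 and let-2. inx-8 had 461, 888, 1403 and 2131 normalised reads in control libraries orig, 1, 2 and 3, 357 against 1465 to 1809 under P granule RNAi and 316 against 1433 to 1864 under csr-1 RNAi. The difference of inx-8 was −2.04 (SE 0.23, limma adjusted p = 0.000972), and that of inx-9 was −2.35 (SE 0.22, limma adjusted p = 0.000455). None of the list was called higher. Of 20 body muscle genes 3 were lower, and of 111 cuticle collagens 13 were lower and dpy-14 was higher, where 2.89% of all tested genes were lower and 0.979% higher. edgeR with TMM factors called 4 genes of the sheath list, 1 of the muscle list and 5 collagens, and DESeq2 called 7, 9 and 24. On chromosome X, 95 of 1331 tested protein-coding genes (7.14%) were lower, against 1.93% to 2.86% on the other chromosomes. The mean log2 level of the sheath list in the controls was 7.20 in library orig and 7.75 to 7.86 in libraries 1 to 3, and that of the muscle list was 7.87 in orig and 7.59 to 8.18 in the others.

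At the share of calls over all genes, 3.87%, lists of the size of the germline lists would hold few calls, so counts of 0 are not a result about them. limma called 0 of 49 RNA regulators, 0 of 45 P granule and small RNA genes and 0 of 43 meiosis genes. At an unadjusted p under 0.05 there were 7, 5 and 6, against 21.5% of all tested genes, and DESeq2 called 1, 0 and 0 and edgeR 0 in each. Of 18 oocyte surface and eggshell genes perm-2 and perm-4 were lower. The 28 tested major sperm protein genes gave 0 calls with limma, edgeR and DESeq2 and 0 with an unadjusted p under 0.05. The 6 vitellogenin genes gave 0 calls with each of these tools and 3 with an unadjusted p under 0.05, with a median difference of −1.42. None of the 12 genes with the largest SDs among the controls was called, with limma adjusted p-values from 0.293 for col-63 upwards, and for none of them was the orig library the highest in all 3 groups.

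The largest rises by the rule were F20B6.7 (3.01), dpy-14 (2.95), ncam-1, a neural cell adhesion gene (2.81), F29G9.1 (2.81), Y46H3C.7 (2.79) and Y51H7C.15 (2.75). ncam-1 had 37.4, 8.37, 4.00 and 5.93 normalised reads in control libraries orig, 1, 2 and 3 (SE 0.40, limma adjusted p = 0.00282). Y46H3C.7 had 869, 235.5, 398 and 186 (SE 0.61, limma adjusted p = 0.0315). That the orig library lay above the numbered libraries in all 3 groups was part of how these 6 genes were chosen. Over all tested genes it lay above in all 3 groups for 811 (6.9%) and below for 1113 (9.47%). With the RNAi libraries alone, ncam-1 was called (limma adjusted p = 0.0431) and the others of the 6 were not. F20B6.7, dpy-14, F29G9.1 and Y46H3C.7 passed in 7, 6, 6 and 11 of 20 alternative settings, and Y51H7C.15 in 16 of 20. ncam-1 passed in 16 of 17, because it was not tested where an orig library was left out. Only its orig libraries reached the level of the filter, with at most 8.37 normalised reads in every numbered library. Its count therefore cannot be compared with the others, and its call with the RNAi libraries alone also rests on a gene kept for its orig values. None of the 6 passed with the control libraries alone.

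**Figure D5:**
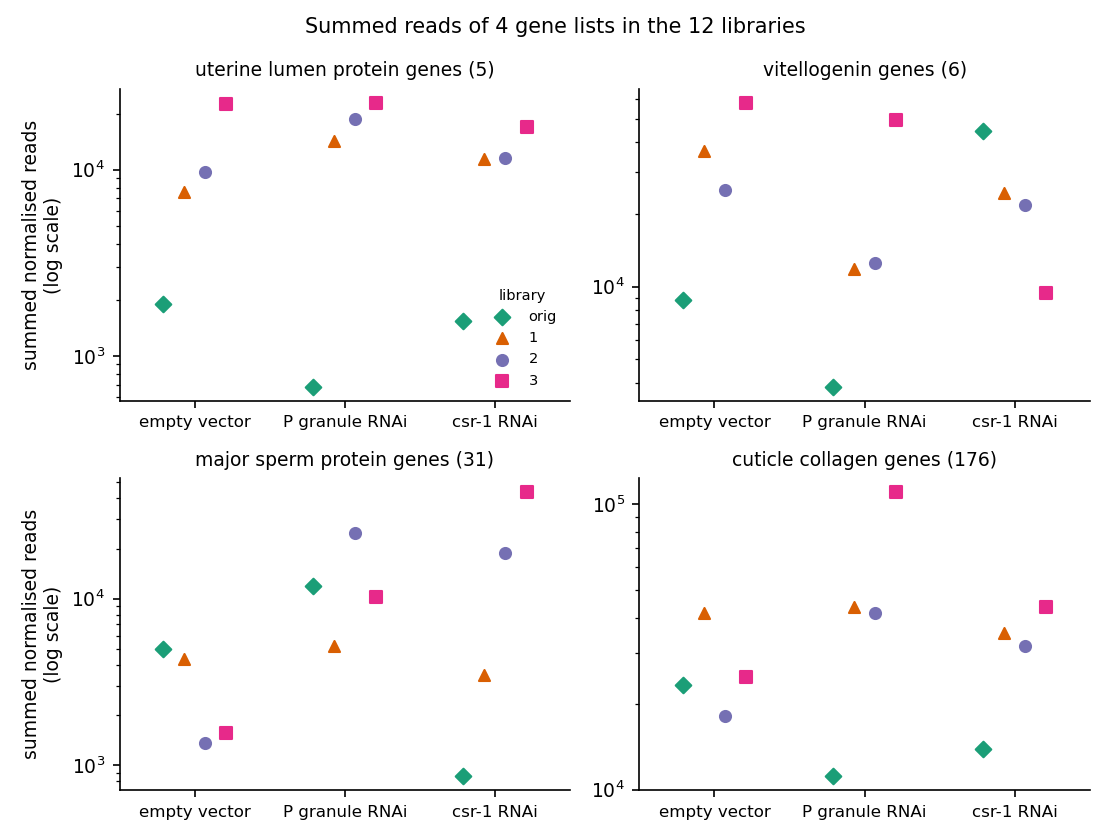
Summed normalised reads (log scale) of 4 gene lists in all 12 libraries, by group, with the symbols for libraries orig, 1, 2 and 3. The uterine lumen genes are lowest in the orig library of each group, from 682 to 1900 against 7594 or more in the numbered libraries, whereas the vitellogenins, sperm genes and collagens do not have orig lowest in all 3 groups.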

How the data were processed

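The authors sequenced poly(A) RNA as 100 bp single reads with an unstranded kit, per the labels' protocols. CASAVA, TopHat2 (2.0.8b), HTSeq (0.5.4p3), DESeq (1.1.2.1) and SAMtools (0.1.18) appear among the tools in the submitters' processing notes; the build they used is not given in the sources used here. Each deposited signal value is a gene's reads over the library's size factor, as deposited by the authors, and 100% of the values are whole multiples of 1 read within 0.01 reads. From them, means, SDs of log2(value + 1) and levels per kb of exon were computed with Python 3.11.15 and pandas 2.3.3. Exon lengths and gene names came from the WBcel235 annotation, which matched 45370 of 45836 entries. The 5 entries that name no gene were left out: alignments without a unique place came to 2.04% to 2.21%, ambiguous reads to 0.783% to 0.879% and reads in no feature to 0.0169% to 0.0210%.

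Library orig was compared with libraries 1 to 3 over all 12 libraries with limma 3.58.1 in R 4.3.3 on log2(value + 1), with group as a covariate, a trend and robust moderation, for genes with at least 10 normalised reads in at least 3 libraries. Benjamini-Hochberg adjusted p-values under 0.05 were called. edgeR 4.0.16 and DESeq2 1.42.0 were run on the recovered reads. On simulated data with 11740 genes and a dispersion of 0.03 the test recovered 81.4% of 2-fold and 100% of 4-fold changes. Of its calls there, 3.26% were false. Whether these rates hold for the deposited libraries was not tested. Other alternatives were the pseudocount, the filter, the scaling and leaving out each library.

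Named genes were the 20 highest by reads and per kb, the 12 largest and 6 smallest SDs, the 6 largest called differences in each direction with orig beyond all numbered libraries in all 3 groups, and defining, highest, lowest and median members of lists. Other genes given values were chosen after their values were seen. The members and lists were chosen with earlier results of these data known. The collagen and eggshell lists were trimmed and the ule and vitellogenin lists added after values were seen.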

Additional observations from a re-analysis of the deposited data

Results flagged for a closer look

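Of 96 values or genes examined over the 4 control libraries, 7 had a library far from the other 3, where chance flags about 1 in 20 groups. That rate is no yardstick here, because ZK180.6, E01G4.6, grl-16 and ZK180.5 were examined for their large SDs and dpy-14 and ncam-1 for their high level in orig. The gene pab-1 had 68143 normalised reads in control library 3 against 98049 to 101214 in the others. The other 6 stood apart through control library orig: ZK180.6 with 292 against 0 to 31.4, E01G4.6 with 472 against 1.98 to 48.1, grl-16 with 243 against 1.999 to 34.5, ZK180.5 with 174 against 0.9997 to 24.07, dpy-14 with 179 against 16.7 to 32.6 and ncam-1 with 37.4 against 3.999 to 8.37.

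The difference between library orig and libraries 1 to 3 ran in opposite directions in the controls and in another group for several lists, with orig beyond every numbered library in both groups. These opposite directions were not tested. Values are differences of the mean log2 level of a list. Sperm lists were higher in control orig and lower in csr-1 RNAi orig: 1.21 against −3.79 for major sperm proteins, 1.02 against −3.35 for small sperm proteins and 0.96 against −1.58 for spe and fer genes. The reverse held for vitellogenins, with −2.42 against 0.85, and for vitellogenins with intestine markers, with −1.15 against 0.82. Cuticle collagens had 1.33 in the controls against −0.89 under P granule RNAi and −1.32 under csr-1 RNAi. By summed reads control orig was not the highest for collagens, with 23187 normalised reads against 41458, 18125 and 24861 in control libraries 1, 2 and 3.

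Smaller opposite differences were found in lists of abundant genes. Large subunit ribosomal proteins had 0.19 in the controls against −0.44 under P granule RNAi and −0.79 under csr-1 RNAi. Respiratory chain genes had 0.17 against −0.18 and −0.55 in the same order, and meiosis genes −0.057 against 0.24 and 0.37. Nuclear pore genes had −0.26 in the controls against 0.25 under csr-1 RNAi, and histones 0.13 against −0.14.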

How the results depend on the processing

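The share of reads in the 100 most abundant genes was 25.06%, 24.6% to 25.8% without each control library in turn, and 40.3% per kb. The median SD of the log2 level was 0.26 over detected genes, 0.44 with no filter, 0.20 at a mean of at least 50, and 0.196 (without library 3) to 0.263 when a library was left out. The number of genes with an SD of at least 1, an alternative chosen after seeing the data, was 187 and ran from 61 without library orig to 268 without library 1. Of the 12 largest SDs, 0 were kept without library orig and 12, 8 and 10 without libraries 1, 2 and 3. The count of 0 was fixed in advance, because none of the 12 reached a mean of 50 without library orig. Detected genes numbered 10345, and 10086 to 10520 without a library.

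The 455 genes called between orig and numbered libraries became 1060 with DESeq2, 1 with the control libraries alone (995 at an unadjusted p under 0.05) and 177 with the RNAi libraries alone. They ran from 100 without P granule RNAi library orig to 635 without csr-1 RNAi library 3. edgeR with TMM factors called 380, of which 361 were shared. No direction reversed among the recomputed differences of the named genes. This is no check of them, because they were chosen with orig beyond all numbered libraries in all 3 groups. Among these differences 64 lost their call and 173 kept it. The cause of these changes was not tested. No paired analysis was possible because the library numbers name replicates and the contrast of orig with the numbered libraries is itself defined by them.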
